A study of Mus musculus with 16 samples.

Results

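The 41 genes described here are a listed set of type I interferon-stimulated genes (ISGs), together with the gene of interferon beta (Ifnb1) and the genes of the type I interferon receptor chains (Ifnar1 and Ifnar2). They were found on the array by gene symbol or synonym, and the list was chosen with earlier results of these data known. A probe was found for 40 of the 41 genes, 68 probes in all, and Xaf1 had none. All 40 passed the filter on dim probes, which kept 17470 features (genes, or probes without a gene symbol) from 41174 probes on the array. RNA came from adherent peritoneal cells of male BALB/cByJ-Lpin1fld/J mice, whose fld allele disrupts Lpin1 (lipin-1 is a phosphatidate phosphatase of lipid synthesis). There were 4 groups with 4 arrays each: fld cells given LPS (bacterial lipopolysaccharide, 100 ng/ml for 5 h), fld cells left untreated, control cells given the same LPS, and control cells left untreated. Control mice were heterozygotes, so they also carried 1 fld allele, and both treatments took place in medium lacking serum after non-adherent cells had been rinsed off. The labels do not say whether arrays of a group came from separate mice, and p-values then measure only the spread between these samples, which may be technical.

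Type I interferons bind a receptor made of the IFNAR1 and IFNAR2 chains, and the receptor acts through JAK kinases on transcription factors that bind the interferon-stimulated response element (ISRE) of its target genes. Many of those genes encode proteins that block viruses at different steps, such as the IFIT, OAS, Mx and TRIM families. In macrophages LPS is sensed by TLR4, whose adaptor TRIF leads to induction of Ifnb1, while the MyD88 branch leads to NF-kB and inflammatory cytokines.

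The ISRE core was looked for in the RefSeq promoter sequences (GRCm38.p6, 250 bases before to 50 bases after each gene's start), because it is the element through which the receptor reaches these genes. The letters searched on either strand were GAAA, any 2 bases, GAAA. Of the 41 genes, 31 had an entry, and 16 of those 31 (51.6%) held a match, against 3.99% of the 27025 genes in the table. The genes with a match were Bst2, Cxcl10, Ddx58, Eif2ak2, Ifi203, Ifi205, Ifih1, Ifit1, Ifit3, Ifitm3, Isg15, Oas1a, Oas1g, Oas3, Rsad2 and Trim21. A gamma-activated site (TTC, any 3 bases, GAA) occurred in 11 of the 31, against 9.55% of genes. A kB-like motif (GGG, any 5 bases, CC) occurred in 21 of the 31, against 53.52% of genes. Such a match is a description of letters and not a measured binding site, and the motifs can overlap one another. The promoters below belong to a pair of genes that fell with LPS in fld cells (Ifit1 and Cxcl10), a gene that did not pass the test (Isg15) and the ligand (Ifnb1), and capitals mark ISRE matches on either strand. They lie at chr19:34640639-34640938 on the + strand (Ifit1), and on the - strand at chr5:92348840-92349139 (Cxcl10), chr4:156200769-156201068 (Isg15) and chr4:88522745-88523044 (Ifnb1).
Ifit1: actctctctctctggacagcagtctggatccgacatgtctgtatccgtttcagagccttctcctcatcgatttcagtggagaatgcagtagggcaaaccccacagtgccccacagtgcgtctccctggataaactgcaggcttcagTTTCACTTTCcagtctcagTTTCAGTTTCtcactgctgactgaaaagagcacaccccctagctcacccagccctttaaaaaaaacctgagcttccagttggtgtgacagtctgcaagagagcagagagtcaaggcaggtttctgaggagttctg
Cxcl10: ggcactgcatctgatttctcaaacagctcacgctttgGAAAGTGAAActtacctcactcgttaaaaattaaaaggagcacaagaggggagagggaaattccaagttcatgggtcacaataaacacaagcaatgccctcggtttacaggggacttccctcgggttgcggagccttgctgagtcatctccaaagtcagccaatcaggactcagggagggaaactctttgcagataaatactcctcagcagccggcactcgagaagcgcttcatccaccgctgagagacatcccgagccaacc
Isg15: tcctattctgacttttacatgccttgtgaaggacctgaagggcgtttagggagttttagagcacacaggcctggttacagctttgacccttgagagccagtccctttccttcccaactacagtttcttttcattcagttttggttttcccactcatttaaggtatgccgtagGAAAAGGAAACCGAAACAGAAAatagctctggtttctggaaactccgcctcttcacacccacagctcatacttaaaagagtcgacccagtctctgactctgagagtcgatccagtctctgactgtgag
Ifnb1: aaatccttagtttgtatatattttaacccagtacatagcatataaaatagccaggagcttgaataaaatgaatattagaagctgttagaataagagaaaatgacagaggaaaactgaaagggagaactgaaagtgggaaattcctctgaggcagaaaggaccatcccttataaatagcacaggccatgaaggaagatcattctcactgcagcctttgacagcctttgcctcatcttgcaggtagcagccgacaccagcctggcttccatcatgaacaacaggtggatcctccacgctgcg
Ifit1 held 2 matches, Cxcl10 held 1 and Isg15 held 3 that overlap, while Ifnb1 held 0 in this window.

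A level below is log2 of the processed signal minus the 75th percentile of its array, so that 0 is that percentile and 1 unit is a factor of 2. A change is the difference of such levels, LPS minus untreated or fld minus control, with its standard error (SE) and an adjusted p from limma fitted to all 16 arrays and 17470 features, called at an adjusted p under 0.05. The 75th percentile itself ran from 189 to 627 in processed signal, and 58.7% to 65.4% of probes were well above background on an array. The lowest percentiles were on LPS arrays, 251 and 189 on fld LPS replicates 2 and 4 and 335 on control LPS replicate 2. The number of arrays, 4 per group, limits the precision. Slides held arrays of 1 group each, and an effect of the slide cannot be told apart from one of the group. Lpin1 went against the label on 1 pair of arrays. The mean level of its 3 dimmer probes was between -6.72 and -5.46 on the arrays of fld replicates 1 to 3, but -3.03 on fld LPS replicate 4 and -1.62 on fld untreated replicate 4, against -3.53 to -2.86 on the control arrays. The fld groups are therefore named as labelled, and counts without both replicate 4 arrays are given beside the results they change. Macrophage markers were above background on all arrays, 10 of 10, with a mean level of 3.45 to 4.74 (fld LPS), 4.89 to 5.13 (fld untreated), 4.47 to 4.71 (control LPS) and 4.88 to 5.02 (control untreated). All 16 genes of a list of NF-kB and cytokine genes that LPS is known to induce rose in fld cells and in control cells, among them Tnfaip3 by 2.43 in fld and 2.79 in control cells and Csf2 by 8.13 in fld and 9.60 in control cells.

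Averaged over the 37 ISGs (the 40 genes without the ligand and receptor genes), the level was lower with LPS than without it in both genotypes. The mean ISG level was 1.87, 3.50, 2.13 and 3.25 on the fld LPS arrays (replicates 1 to 4), against 4.16, 3.50, 3.93 and 3.79 on the fld untreated arrays. Those group means were 2.69 ± 0.81 and 3.84 ± 0.28 (SD, n = 4 each). It was 2.78, 2.55, 2.10 and 2.55 on the control LPS arrays, against 3.83, 2.95, 2.67 and 2.90 on the control untreated arrays. The control means were 2.50 ± 0.28 with LPS and 3.09 ± 0.51 without it (SD, n = 4 each). In bulk RNA, fewer cells expressing these genes and less RNA per cell cannot be told apart.

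**Figure D1:**
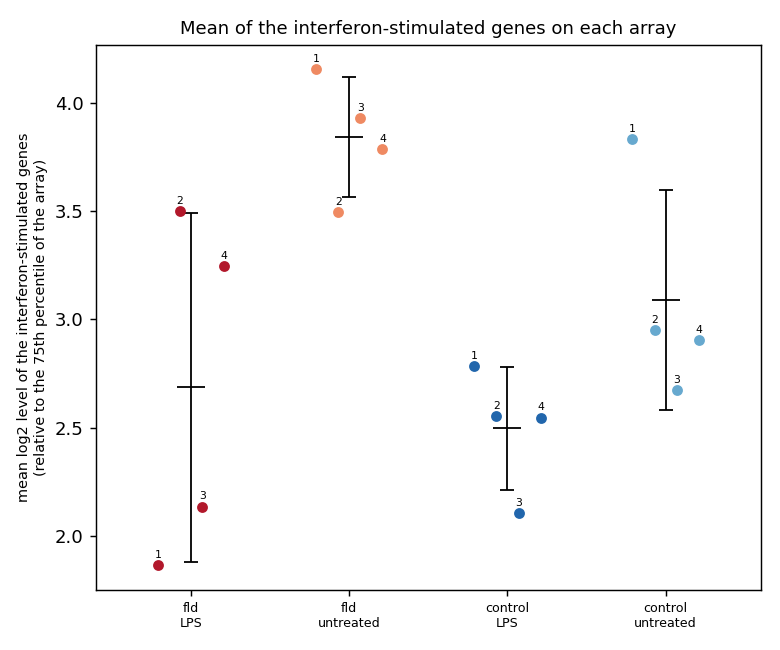
Mean log2 level (relative to the 75th percentile of the array) of the 37 interferon-stimulated genes on each of the 16 arrays, with the replicate number above each point and the group mean and SD as bars. The fld LPS arrays form a low pair (replicates 1 and 3, at 1.87 and 2.13) and a high pair (replicates 2 and 4, at 3.50 and 3.25), and control untreated replicate 1 lies above the other arrays of its group.

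The ISGs moved together within groups. In the fld LPS group, replicates 2 and 4 both exceeded replicates 1 and 3 for 34 of the 37 ISGs, an order that 31.4% of all features showed. Control untreated replicate 1 was the highest array of its group for 37 of 37 ISGs (32.4% of all features), and control LPS replicate 3 was the lowest of its group for 34 of 37 (40.1%). Fld untreated replicate 2 was the lowest for 30 of 37 (29.4%). The median SD over the 40 genes was 0.73 in fld LPS, 0.28 in fld untreated, 0.30 in control LPS and 0.45 in control untreated arrays, against medians over all features of 0.26, 0.19, 0.19 and 0.20 in the same groups. The high pair of fld LPS arrays were also the arrays with the lowest 75th percentiles. Control untreated replicate 1 had the lowest percentile of its group (472). Control LPS replicate 3 (627) and fld untreated replicate 2 (581) had the highest of theirs. Over the 16 arrays, deviations from the group mean of the ISG mean and of the log2 75th percentile correlated at -0.8. After quantile normalization, which gives every array the same distribution of signal, the mean ISG levels of fld LPS replicates 1 to 4 were 10.58, 12.21, 10.85 and 11.98 on that scale, in the same order. The part of array brightness in this pattern was not tested further. The mean level of 4 NK cell markers was -4.90, -4.04, -4.92 and -3.40 on fld LPS replicates 1 to 4, against -4.09, -4.45, -3.61 and -4.14 on the fld untreated arrays, with Ncr1 not above background in any group. On control arrays it was -4.42, -4.40, -4.82 and -4.15 with LPS, against -4.0, -4.40, -5.0 and -4.47 without it. Only 1 of these 4 NK cell markers was above background on all arrays, and Klrk1 was above it on no LPS array. These levels are therefore near the limit of the array. The mean of 3 markers of plasmacytoid dendritic cells, a main source of type I interferon, was 1.42, 1.86, 1.47 and 2.04 on the fld LPS arrays, against 1.51, 1.09, 1.71 and 1.59 on the fld untreated arrays, with Siglech not above background in any group. Their control values were 1.55, 1.67, 1.49 and 1.56 with LPS, against 1.69, 1.09, 1.20 and 1.12 without it. Both marker sets were thus higher on fld LPS replicates 2 and 4 than on replicates 1 and 3, and highest on control untreated replicate 1 in its group, as the ISGs were. The fld LPS order was not particular to them. T cell (-2.16, -1.56, -2.39 and -0.77) and mast cell marker means (1.67, 2.36, 1.17 and 2.65) showed it too. So did B cell, dendritic cell, neutrophil and mesothelial or fibroblast marker means. Macrophage (4.74, 4.35, 4.64 and 3.45) and eosinophil marker means were lower on replicates 2 and 4 instead. The mean of 4 neutrophil markers was higher with LPS in both genotypes, between -0.24 and 0.09 on fld LPS arrays, against -2.35 to -1.88 on fld untreated arrays. It was between -1.41 and -0.86 on control LPS arrays, against -2.69 to -1.92 on control untreated arrays, with Elane not above background in any group. By gene, S100a8 rose by 4.49 in fld and 3.46 in control cells, and Camp by 2.50 and 3.07 (limma adjusted p under 0.05). S100a9 (0.77 in fld and -1.39 in control cells) and Mpo (0.35 and -0.03) did not pass in either genotype, so the higher mean was not shared by all 4. The part of these cells in the ISG levels was not tested.

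**Figure D2:**
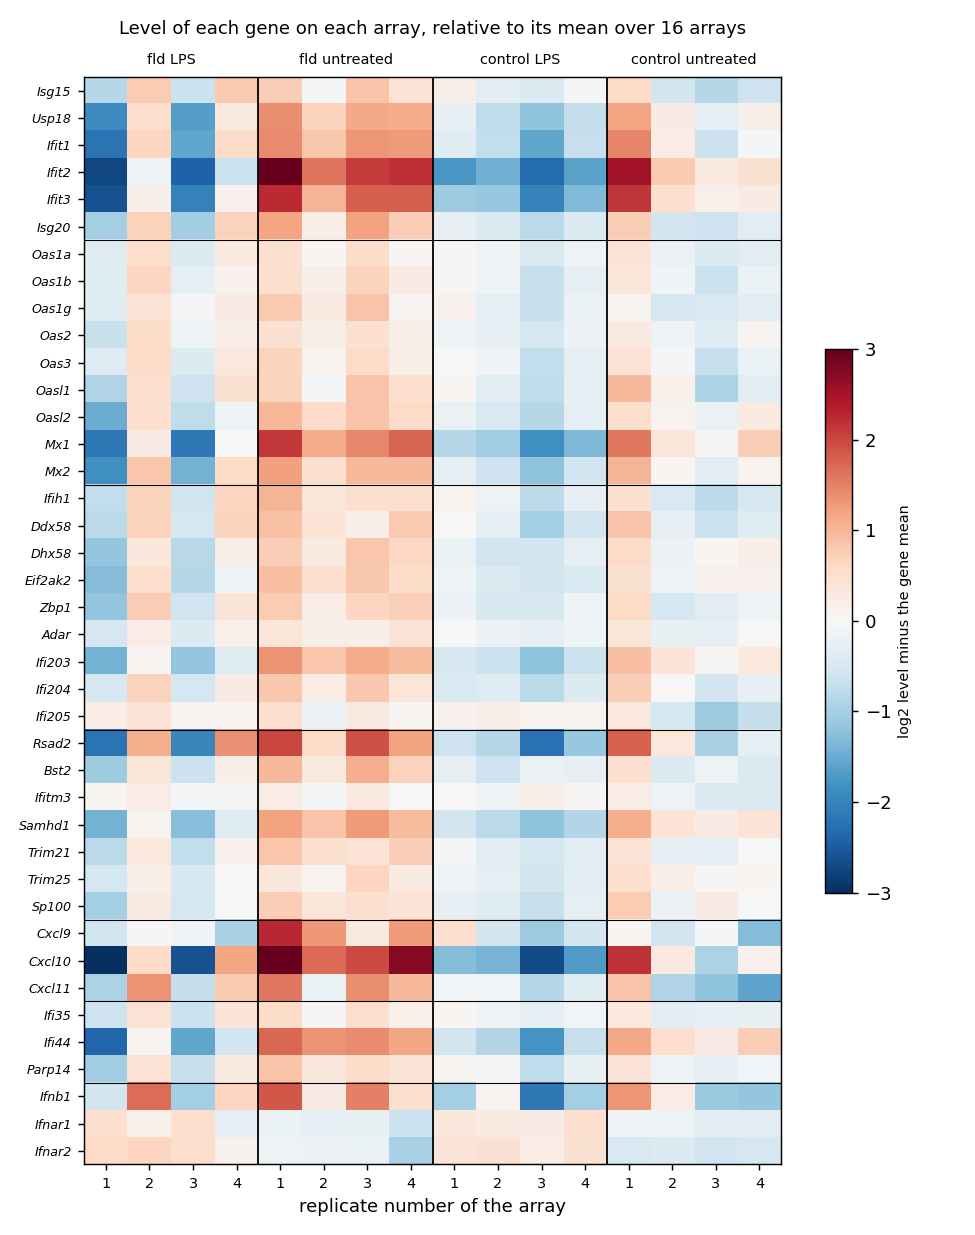
Level of the 40 measured genes on the 16 arrays as log2 level minus the mean of the gene, with columns in 4 groups by replicate number and rows in the role groups of the text, parted by lines. Blue columns at fld LPS replicates 1 and 3 and at control LPS replicate 3, and red columns in the fld untreated group and at control untreated replicate 1, run across most rows, while Ifnar1 and Ifnar2 at the bottom follow treatment instead.

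With LPS, 2 of the 40 genes rose and 19 fell in fld cells. Of all features tested, 21.9% rose and 18.2% fell, so the share that fell, 19 of 40, was above the share among all features. Of the 19, Cxcl9 passed the filter on dim probes only through the fld untreated group, where it is high. With only the 39 genes well above background on all 16 arrays, 18 fell and 2 rose, where 6167 of 14964 features were called in either direction. The median change of the 40 genes was -0.82, against 0.06 over all features, and 37 of the 40 had a change below 0. The fld LPS and untreated arrays did not overlap for 14 of the 40 genes, against 37.2% of all features. In control cells 3 of the 40 genes rose and 7 fell, against 14.8% and 15.2% of all features, so the share that fell, 7 of 40, was close to the background in this fit. Their median change was -0.28, against 0.03 over all features, with 30 of 40 below 0. The median was -0.08 without control untreated replicate 1 and -0.47 without control untreated replicate 3. The control arrays did not overlap for 13 of the 40 genes, against 32.8% of all features. All 7 genes that fell in control cells also fell in fld cells, where they made up 36.8% of the 19. Without both arrays labelled fld replicate 4, 21 genes fell and 2 rose in fld cells, and 8 fell and 2 rose in control cells. Of 17470 features, 5440 were then called in either direction in fld cells and 5872 in control cells. Without the 3 arrays of lowest 75th percentile, an alternative chosen after seeing the data, 32 fell in fld cells and 12 in control cells. In either direction, 4847 of 17470 features were then called in fld cells and 5093 in control cells. The main fit shares 1 estimate of spread over all groups. With only the 8 arrays compared, 13 fell and 2 rose in control cells, where 5266 of 17470 features were called in either direction. In fld cells 14 then fell and 1 rose, with 5649 features called.

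**Figure D3:**
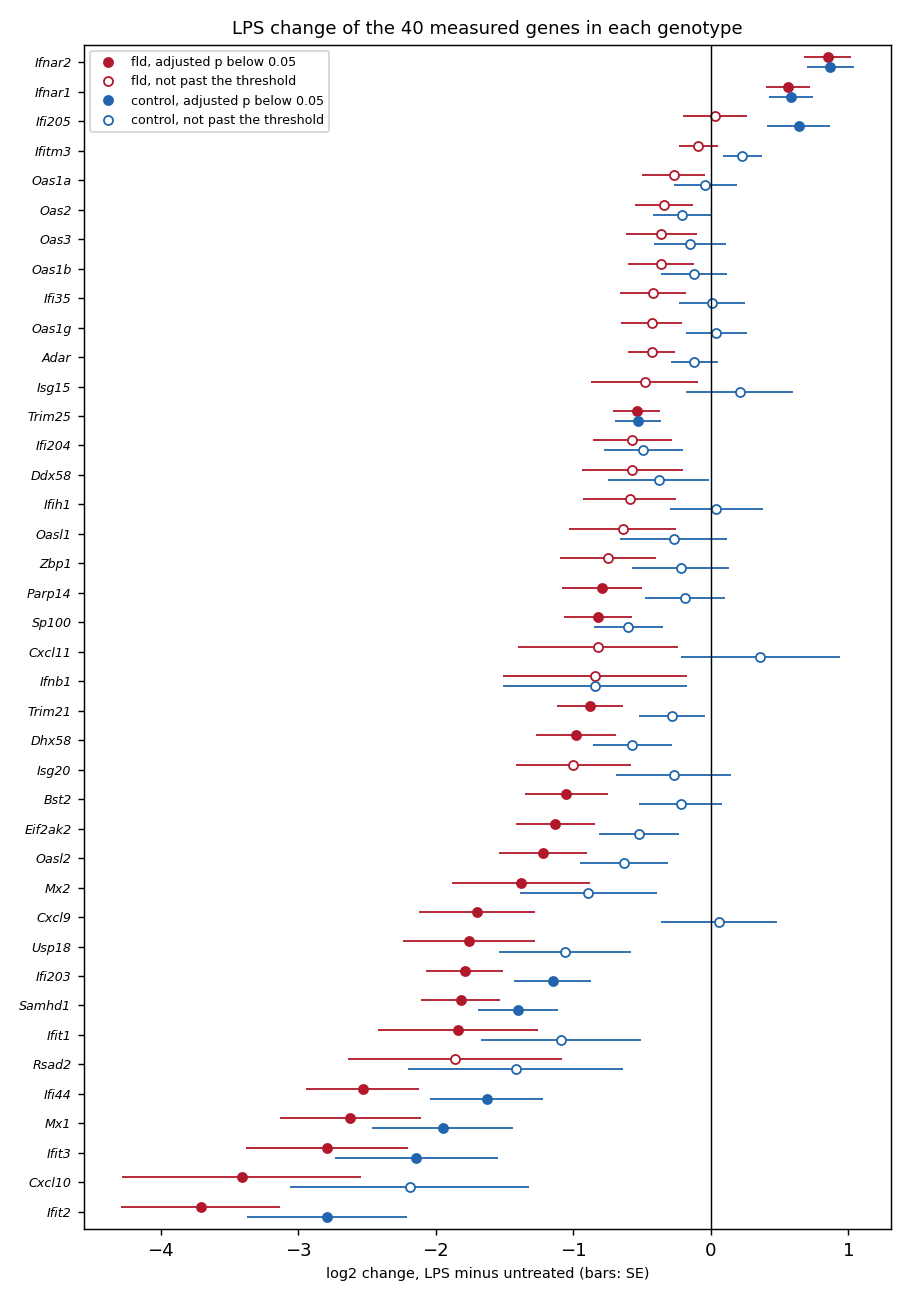
Log2 change with LPS (LPS minus untreated, bars give the SE) of each of the 40 measured genes in fld cells (red) and control cells (blue), sorted by the change in fld cells. Filled points passed an adjusted p of 0.05, and the largest falls in fld cells were those of Ifit2 (-3.71) and Cxcl10 (-3.41).

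The receptor genes rose with LPS where they passed, while the ligand gene did not pass in either genotype. Ifnb1, which encodes interferon beta, had levels of -3.17, -0.94, -3.64 and -1.98 on the fld LPS arrays, against -0.76, -2.38, -1.10 and -2.15 on the fld untreated arrays. On control arrays they were -3.65, -2.55, -4.76 and -3.64 with LPS, against -1.29, -2.40, -3.74 and -3.79 without it. Groups overlapped in both genotypes, and by limma the change was -0.84 (SE 0.67, adjusted p = 0.33) in fld cells and -0.84 (SE 0.67, adjusted p = 0.38) in control cells, so neither passed. The 95% interval of both ran from -2.26 to 0.58. The probe was well above background on all 16 arrays. Ifnar1, which encodes a chain of the receptor, read 3.42, 3.08, 3.46 and 2.64 on the fld LPS arrays, against 2.72, 2.66, 2.71 and 2.28 on the fld untreated arrays. It read 3.27, 3.19, 3.18 and 3.42 on the control LPS arrays, against 2.79, 2.76, 2.59 and 2.61 on the control untreated arrays. It rose by 0.56 (SE 0.16, adjusted p = 0.013) in fld cells, where the lowest LPS array lay within the untreated range, and by 0.58 (SE 0.16, adjusted p = 0.013) in control cells, where the arrays did not overlap (limma). With median scaling neither rise passed (limma adjusted p = 0.25 in fld and 0.072 in control cells). Ifnar2, which encodes the other chain, read 4.54, 4.58, 4.48 and 4.08 on the fld LPS arrays, against 3.80, 3.77, 3.75 and 2.97 on the fld untreated arrays. Its control levels were 4.33, 4.40, 4.17 and 4.40 with LPS and 3.48, 3.54, 3.36 and 3.43 without it. The arrays did not overlap in either genotype, and Ifnar2 rose by 0.85 (SE 0.17, adjusted p = 0.0012) in fld cells and by 0.87 (SE 0.17, adjusted p = 0.0011) in control cells (limma). A second Ifnar2 probe changed by 0.25 in fld cells and 0.33 in control cells and did not pass in either (limma adjusted p = 0.23 and 0.14). With normexp background correction, for which the brightest probe was chosen anew, the Ifnar2 change turned to -0.14 in fld and -0.20 in control cells. With extreme local backgrounds replaced in that setting, the Ifnar2 rise did not pass in either genotype.

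Among the ISG15 system and the IFIT genes, 4 of 6 fell in fld cells (Ifit1, Ifit2, Ifit3 and Usp18) and 2 of 6 in control cells (Ifit2 and Ifit3). Ifit2, which encodes an RNA-binding antiviral protein, had levels of -2.20, 0.44, -1.90 and -0.11 on the fld LPS arrays, against 3.56, 2.16, 2.63 and 2.73 on the fld untreated arrays. On control arrays its levels were -1.22, -0.90, -1.78 and -1.06 with LPS, against 3.05, 1.33, 0.83 and 1.0 without it. Every LPS array was below every untreated array of its genotype, and Ifit2 had the lowest change of the 40 genes in both, -3.71 (SE 0.58, adjusted p = 0.00020) in fld cells and -2.79 (SE 0.58, adjusted p = 0.0019) in control cells (limma). Both of its probes fell. The probe used lies at chr19:34277058-34277117 by the coordinates of the scanner files, for which the sources used here name no build. Ifit3, a partner of IFIT1 in RNA binding, read 1.21, 4.0, 1.79 and 3.94 on the fld LPS arrays, against 6.06, 4.83, 5.61 and 5.61 on the fld untreated arrays. It read 2.76, 2.69, 1.80 and 2.49 on the control LPS arrays, against 5.96, 4.29, 3.98 and 4.06 on the control untreated arrays. The groups were again apart in both genotypes, with a change of -2.79 (SE 0.59, adjusted p = 0.0020) in fld cells and -2.14 (SE 0.59, adjusted p = 0.013) in control cells (limma). Ifit1, which encodes a protein that binds viral RNA by its 5' end, read 1.69, 4.55, 2.35 and 4.46 on the fld LPS arrays, against 5.32, 4.73, 5.21 and 5.17 on the fld untreated arrays. Its control levels were 3.54, 3.16, 2.35 and 3.21 with LPS and 5.36, 4.13, 3.26 and 3.87 without it. The fld groups did not overlap although LPS replicates 2 and 4 came close, while the control groups overlapped. The change was -1.84 (SE 0.58, adjusted p = 0.020) in fld cells, which was lost without fld LPS replicate 1 or 3, and -1.09 (SE 0.58, adjusted p = 0.17) in control cells (limma).

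Usp18, the protease that removes ISG15 from proteins and also dampens signalling at IFNAR2, read 1.92, 4.35, 2.16 and 4.12 on the fld LPS arrays, against 5.22, 4.52, 4.95 and 4.92 on the fld untreated arrays. On control arrays it read 3.57, 3.05, 2.60 and 3.11 with LPS, against 4.99, 4.07, 3.54 and 3.99 without it. It fell in fld cells (-1.76, SE 0.48, adjusted p = 0.0096), where the groups did not overlap, and did not pass in control cells (-1.06, SE 0.48, adjusted p = 0.11, limma), where they overlapped. Isg15, the gene of the ubiquitin-like modifier itself, read 4.34, 5.95, 4.56 and 5.99 on the fld LPS arrays, against 5.93, 5.15, 6.06 and 5.63 on the fld untreated arrays. Control arrays gave 5.37, 4.85, 4.78 and 5.17 with LPS and 5.79, 4.64, 4.33 and 4.58 without it. The groups overlapped in both genotypes, and the changes, -0.48 (SE 0.39, adjusted p = 0.34) in fld cells and 0.21 (SE 0.39, adjusted p = 0.74) in control cells (limma), did not pass. Its only probe is placed on chromosome 17 in the scanner files (chr17:44534906-44534965), while RefSeq places the gene on chromosome 4, so the probe may not report this gene alone. Isg20, an exonuclease gene, did not pass in either genotype (-1.0, SE 0.42, adjusted p = 0.067 in fld cells and -0.27, SE 0.42, adjusted p = 0.67 in control cells, limma).

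**Figure D4:**
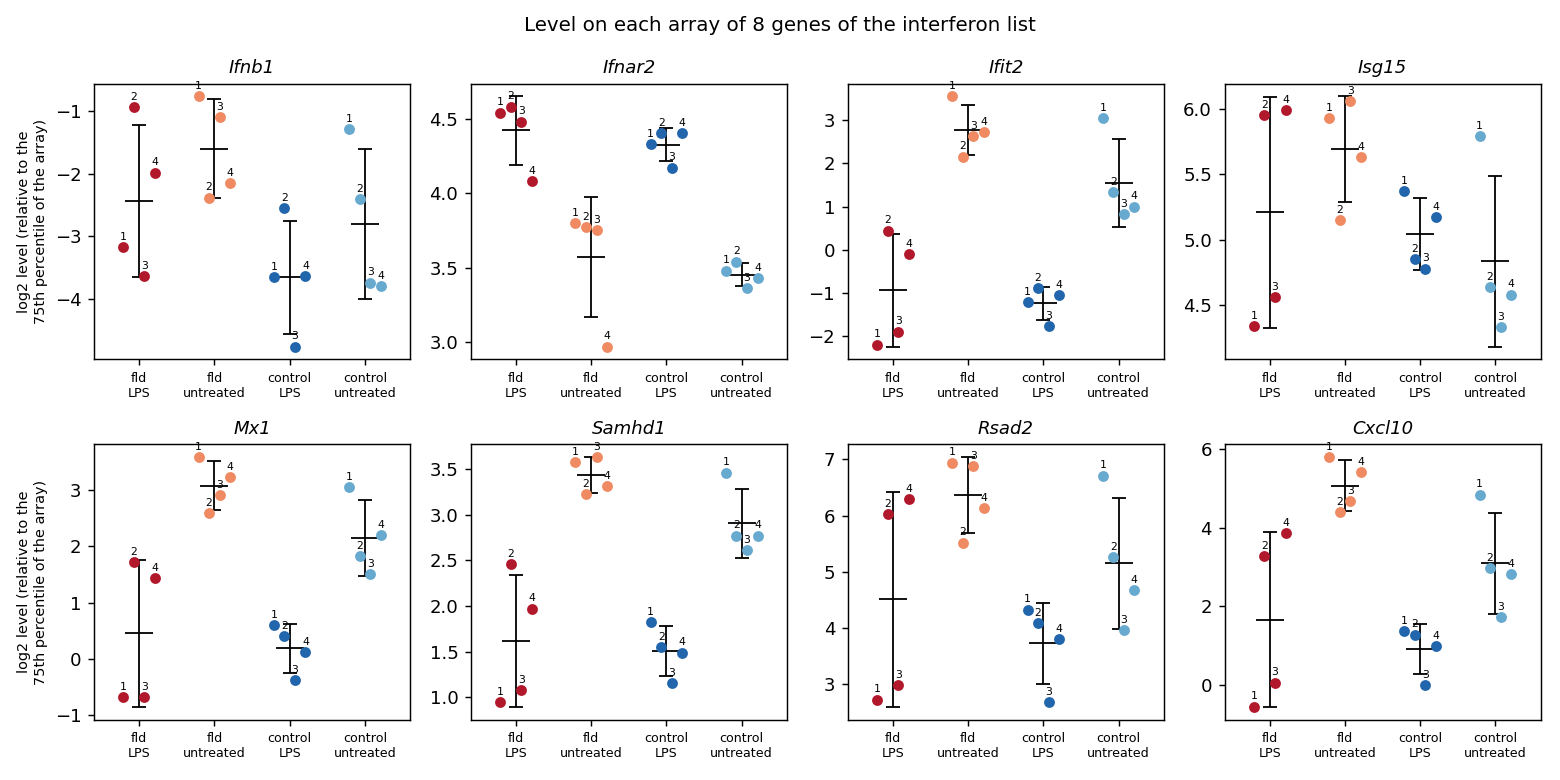
Log2 level (relative to the 75th percentile of the array) of 8 genes on each of the 16 arrays, with replicate numbers above the points and the group mean and SD as bars. Ifit2, Mx1 and Samhd1 show LPS arrays below all untreated arrays of the same genotype, Ifnar2 shows the opposite order, and Rsad2, Isg15 and Ifnb1 overlap.

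Of the 9 OAS and Mx genes, 3 fell in fld cells (Mx1, Mx2 and Oasl2) and 1 in control cells (Mx1). Mx1, named for a dynamin-like GTPase, read -0.68, 1.72, -0.67 and 1.44 on the fld LPS arrays, against 3.58, 2.58, 2.91 and 3.22 on the fld untreated arrays. It read 0.60, 0.41, -0.38 and 0.12 on the control LPS arrays, against 3.05, 1.82, 1.50 and 2.19 on the control untreated arrays. The groups were apart in both genotypes, and Mx1 changed by -2.62 (SE 0.51, adjusted p = 0.0011) in fld cells and by -1.95 (SE 0.51, adjusted p = 0.0090) in control cells (limma), with both probes past the threshold. Mx2 encodes the related GTPase, and read 2.24, 4.92, 2.67 and 4.68 on the fld LPS arrays, against 5.32, 4.60, 5.06 and 5.06 on the fld untreated arrays. Control arrays gave 3.80, 3.46, 2.88 and 3.51 with LPS, against 5.11, 4.15, 3.76 and 4.19 without it. Fld LPS replicates 2 and 4 lay within the untreated range, and the fall in fld cells (-1.38, SE 0.50, adjusted p = 0.039, limma) was lost when any fld untreated array, fld LPS replicate 1 or fld LPS replicate 3 was left out. In control cells the change was -0.89 (SE 0.50, adjusted p = 0.20) (limma). Oasl2, a gene of an OAS-like protein, read 3.37, 5.37, 4.10 and 4.70 on the fld LPS arrays, against 5.87, 5.43, 5.71 and 5.44 on the fld untreated arrays. Levels on control arrays were 4.66, 4.41, 4.01 and 4.59 with LPS and 5.39, 4.98, 4.66 and 5.13 without it. The arrays did not overlap in either genotype, but only fld cells passed (-1.22, SE 0.32, adjusted p = 0.0072 in fld cells and -0.63, SE 0.32, adjusted p = 0.15 in control cells, limma). Oas1a, Oas1b, Oas1g, Oas2 and Oas3, genes of the 2-5A synthetase family, did not pass in either genotype by their brightest probes. For Oas3, 1 of 2 probes passed in both genotypes, and both probes changed by less than 0. With median scaling Oas1b, Oas1g, Oas2 and Oas3 fell in fld cells. The changes of Oas1a, Oas1b, Oas1g, Oas2 and Oas3 lay between -0.43 and -0.27 in fld cells and between -0.21 and 0.04 in control cells, and those of Oasl1, known in mice to hold back translation of IRF7, were -0.64 and -0.27 in the same cells. The OAS genes of chromosome 5 are close relatives, and probes for one may bind transcripts of another.

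Of the 9 genes of nucleic acid sensors, PKR and ADAR1, 3 fell in fld cells (Ifi203, Eif2ak2 and Dhx58), and in control cells Ifi203 fell and Ifi205 rose. Ifi203, a member of the mouse IFI200 family of nuclear proteins, read 1.35, 2.81, 1.57 and 2.40 on the fld LPS arrays, against 4.10, 3.60, 3.88 and 3.71 on the fld untreated arrays. On control arrays it read 2.29, 2.11, 1.56 and 2.12 with LPS, against 3.66, 3.15, 2.80 and 3.08 without it. The arrays of both genotypes were apart, with changes of -1.79 (SE 0.28, adjusted p = 0.00023) in fld cells and -1.15 (SE 0.28, adjusted p = 0.0062) in control cells (limma). The IFI200 genes lie next to each other and resemble one another, so their probes may share transcripts. Ifi205 belongs to the same family and read 5.53, 5.70, 5.41 and 5.37 on the fld LPS arrays, against 5.82, 5.13, 5.58 and 5.38 on the fld untreated arrays. Its control levels were 5.43, 5.51, 5.41 and 5.42 with LPS and 5.63, 4.77, 4.23 and 4.59 without it. Control untreated replicate 1 lay above every control LPS array, and the rise in control cells (0.64, SE 0.23, adjusted p = 0.044, limma) was lost in 22 of 30 alternative settings, among them leaving out any control array other than untreated replicate 1, while a second, dimmer probe rose by 1.37 (limma adjusted p = 0.0047). The change in fld cells was 0.03 (SE 0.23, adjusted p = 0.94) (limma). The third member, Ifi204, did not pass (-0.57, SE 0.29, adjusted p = 0.13 in fld cells and -0.49, SE 0.29, adjusted p = 0.23 in control cells, limma).

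Eif2ak2 encodes PKR, the kinase that stops translation on sensing double-stranded RNA, and read 1.27, 3.12, 1.72 and 2.45 on the fld LPS arrays, against 3.49, 3.08, 3.40 and 3.13 on the fld untreated arrays. Control arrays gave 2.44, 2.18, 2.04 and 2.12 with LPS, against 3.03, 2.43, 2.71 and 2.71 without it. It fell in fld cells (-1.13, SE 0.29, adjusted p = 0.0069), where only LPS replicate 2 reached the untreated range, and did not pass in control cells (-0.52, SE 0.29, adjusted p = 0.20, limma). Dhx58, the gene of LGP2, which tunes the cytosolic RNA sensors, read 2.21, 3.74, 2.57 and 3.61 on the fld LPS arrays, against 4.13, 3.66, 4.23 and 4.02 on the fld untreated arrays. In control cells the levels were 3.20, 2.81, 2.82 and 3.14 with LPS and 3.98, 3.22, 3.45 and 3.61 without it. It fell in fld cells (-0.98, SE 0.29, adjusted p = 0.015), where LPS replicate 2 lay above the lowest untreated array, and did not pass in control cells (-0.57, SE 0.29, adjusted p = 0.15, limma), where the arrays did not overlap. The genes of the RNA sensors MDA5 (Ifih1) and RIG-I (Ddx58), the Z-nucleic acid sensor Zbp1 and the RNA editing enzyme Adar did not pass in either genotype. Their changes in fld cells were -0.59, -0.57, -0.75 and -0.43, and in control cells 0.04, -0.38, -0.22 and -0.12.

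Of the 7 restriction factor and TRIM genes, 5 fell in fld cells (Samhd1, Trim21, Bst2, Sp100 and Trim25) and 2 in control cells (Samhd1 and Trim25). Samhd1 encodes a dNTP hydrolase that limits retroviruses, and read 0.95, 2.46, 1.08 and 1.97 on the fld LPS arrays, against 3.57, 3.22, 3.63 and 3.31 on the fld untreated arrays. It read 1.82, 1.55, 1.16 and 1.49 on the control LPS arrays, against 3.46, 2.77, 2.61 and 2.77 on the control untreated arrays. The groups were apart in both genotypes, and Samhd1 changed by -1.82 (SE 0.29, adjusted p = 0.00024) in fld cells and by -1.40 (SE 0.29, adjusted p = 0.0020) in control cells (limma), past the threshold in all 30 alternative settings. Trim21, the gene of a cytosolic antibody receptor, read -0.16, 0.96, -0.08 and 0.77 on the fld LPS arrays, against 1.48, 1.12, 1.05 and 1.38 on the fld untreated arrays. Control arrays gave 0.60, 0.30, 0.13 and 0.32 with LPS, against 1.06, 0.41, 0.36 and 0.66 without it. Only the fld groups were apart, with a change of -0.88 (SE 0.24, adjusted p = 0.0088) in fld cells and -0.28 (SE 0.24, adjusted p = 0.41) in control cells (limma). Bst2, the gene of tetherin, which holds budding viruses at the cell surface, read 3.91, 5.33, 4.32 and 5.17 on the fld LPS arrays, against 5.94, 5.26, 6.06 and 5.67 on the fld untreated arrays. In control cells it read 4.68, 4.34, 4.77 and 4.72 with LPS and 5.48, 4.55, 4.83 and 4.53 without it. It fell in fld cells (-1.05, SE 0.30, adjusted p = 0.012), where LPS replicate 2 lay just above the lowest untreated array, and did not pass in control cells (-0.22, SE 0.30, adjusted p = 0.63, limma). Sp100, a component of nuclear bodies, read 0.95, 2.24, 1.45 and 1.97 on the fld LPS arrays, against 2.71, 2.33, 2.46 and 2.38 on the fld untreated arrays. Control levels were 1.73, 1.61, 1.27 and 1.68 with LPS and 2.73, 1.79, 2.22 and 1.96 without it. The arrays of both genotypes were apart, and the change was -0.82 (SE 0.25, adjusted p = 0.018) in fld cells and -0.60 (SE 0.25, adjusted p = 0.082) in control cells (limma). In fld cells 1 of its 3 probes did not pass.

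Trim25, the ubiquitin ligase gene that acts on RIG-I, changed by -0.54 (SE 0.17, adjusted p = 0.023) in fld cells and -0.53 (SE 0.17, adjusted p = 0.030) in control cells (limma), and its other probe did not pass in either genotype. These calls were lost in 6 of 30 alternative settings in fld cells and in 9 of 30 in control cells. Rsad2, the gene of viperin, a radical SAM enzyme that makes a chain-terminating nucleotide, read 2.73, 6.03, 2.98 and 6.30 on the fld LPS arrays, against 6.94, 5.52, 6.88 and 6.14 on the fld untreated arrays. On control arrays it read 4.33, 4.09, 2.69 and 3.80 with LPS, against 6.71, 5.26, 3.97 and 4.67 without it. Its levels spread over more than 3 units within the fld LPS group and overlapped between treatments in both genotypes. The change of the brightest probe did not pass, -1.86 (SE 0.78, adjusted p = 0.070) in fld cells and -1.42 (SE 0.78, adjusted p = 0.19) in control cells (limma). Its 2 dimmer probes passed in fld cells at -2.02 (limma adjusted p = 0.030) and -2.11 (limma adjusted p = 0.032). Ifitm3, which blocks virus entry at endosomes, stayed within a narrow range and did not pass (-0.09, SE 0.14, adjusted p = 0.65 in fld cells and 0.23, SE 0.14, adjusted p = 0.26 in control cells, limma).

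The 3 chemokine genes encode ligands of CXCR3, which draw T cells and NK cells, and of them Cxcl10 fell in fld cells, as did Cxcl9 at the limit of detection. Cxcl10 read -0.55, 3.27, 0.06 and 3.87 on the fld LPS arrays, against 5.80, 4.39, 4.67 and 5.42 on the fld untreated arrays. It read 1.37, 1.28, -0.01 and 0.98 on the control LPS arrays, against 4.84, 2.97, 1.73 and 2.82 on the control untreated arrays. All LPS arrays lay below all untreated arrays of the same genotype, and the change was -3.41 (SE 0.87, adjusted p = 0.0068) in fld cells and -2.19 (SE 0.87, adjusted p = 0.073) in control cells (limma), where it did not pass. Cxcl9, which is known to respond mainly to interferon gamma, read -5.13, -4.48, -4.63 and -5.49 on the fld LPS arrays, against -2.25, -3.21, -4.23 and -3.24 on the fld untreated arrays. Control levels were -4.01, -5.07, -5.58 and -5.08 with LPS and -4.46, -5.10, -4.56 and -5.83 without it. Its probe was well above background on all 4 fld untreated arrays but on only 1 of 4 fld LPS, 1 of 4 control LPS and 2 of 4 control untreated arrays, so these levels are near the limit of the array. It passed the filter only through the fld untreated group, so it had to stand high there, and its fitted changes support nothing about the ISGs. The change with LPS was -1.70 (SE 0.42, adjusted p = 0.0054) in fld cells and 0.06 (SE 0.42, adjusted p = 0.94) in control cells (limma), and it turned to 0.45 in fld cells with normexp background correction. Cxcl11 did not pass (-0.82, SE 0.58, adjusted p = 0.27 in fld cells and 0.36, SE 0.58, adjusted p = 0.69 in control cells, limma).

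Of the remaining genes, Ifi44 fell in both genotypes and Parp14 in fld cells. Ifi44, an interferon-induced gene of the antiviral response, read 0.97, 3.43, 1.78 and 2.76 on the fld LPS arrays, against 5.07, 4.69, 4.77 and 4.53 on the fld untreated arrays. Control arrays gave 2.79, 2.47, 1.58 and 2.65 with LPS, against 4.49, 3.85, 3.60 and 4.08 without it. The groups did not overlap in either genotype, and the change was -2.53 (SE 0.41, adjusted p = 0.00030) in fld cells and -1.63 (SE 0.41, adjusted p = 0.0077) in control cells (limma). Parp14, the gene of an ADP-ribosyltransferase, read 5.04, 6.51, 5.40 and 6.34 on the fld LPS arrays, against 6.93, 6.42, 6.64 and 6.48 on the fld untreated arrays. Its control levels were 6.16, 6.03, 5.31 and 5.86 with LPS and 6.47, 5.92, 5.78 and 5.99 without it. The fld groups overlapped at LPS replicate 2, and the fall in fld cells (-0.79, SE 0.29, adjusted p = 0.042, limma) was lost in 14 of 30 alternative settings. In control cells the change was -0.19 (SE 0.29, adjusted p = 0.67) (limma). Ifi35 did not pass (-0.42, SE 0.24, adjusted p = 0.18 in fld cells and 0.01, SE 0.24, adjusted p = 0.98 in control cells, limma).

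Several probes were kept for 20 of the 40 genes. In fld cells all probes of 17 of these 20 genes changed by less than 0, and in control cells those of 14. Probes of a gene fell on both sides of the threshold for 8 genes in fld cells (Ddx58, Dhx58, Ifnar2, Oas3, Parp14, Rsad2, Sp100 and Trim25) and for 5 in control cells (Ifi203, Ifnar2, Oas3, Parp14 and Trim25). By promoter, 7 of the 16 genes with an ISRE match fell in fld cells, as did 7 of the 14 measured genes whose promoter had none. Their median changes were -0.74 with a match and -0.83 without one in fld cells, and -0.25 and -0.40 in control cells. The genes without a match include Cxcl9 and the ligand and receptor genes Ifnb1, Ifnar1 and Ifnar2, so they are not all ISGs. Promoters of the other 10 measured genes were not used here.

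A wider list of interferon-stimulated genes, 33 of 37 measured and none of them among the 41, fell in fld cells for 24 genes and rose for 2, with a median change of -0.90. Of all features, 18.2% fell and 21.9% rose in fld cells. In control cells 7 of the 33 fell and 3 rose, with a median of -0.41, against 15.2% and 14.8% of all features. The smallest adjusted p values in fld cells by limma were those of Ifitm1 (1.25, adjusted p = 2.7e-07), Lgals3bp (-1.10, adjusted p = 0.00018), Znfx1 (-1.49, adjusted p = 0.00026), Ly6e (-1.95, adjusted p = 0.00042) and Psmb9, an immunoproteasome subunit (-1.24, adjusted p = 0.00046). In control cells Ifitm1 (0.71) and Cd274, the gene of PD-L1 (1.49), rose, while Ly6e (-1.46), Znfx1 (-1.01) and Ifi202b (-0.80) fell.

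Of 34 genes of TLR4, interferon induction and JAK-STAT signalling, 30 were measured. In fld cells 6 rose and 7 fell, against 21.9% and 18.2% of all features, and in control cells 6 rose and 4 fell, against 14.8% and 15.2%, shares near the background. The suppressor of cytokine signalling Socs3 rose by 2.54 in fld cells and 2.37 in control cells, the LPS co-receptor Cd14 by 1.01 in fld and 1.33 in control cells, and Traf3, an adaptor on the way to interferon induction, by 0.63 in fld and 0.71 in control cells. Ticam2, the gene of TRAM, which links TLR4 to TRIF, was at least 3.05-fold lower with LPS in fld cells (limma adjusted p = 6.1e-06), a bound because no fld LPS array read it well above background, and fell by 1.50 on the log2 scale in control cells. Irf1 fell by 1.53 in fld cells and by 0.84 in control cells.

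Without LPS, the ISGs stood somewhat higher on fld than on control arrays, but few passed. Of the 40 genes 1 rose and 0 fell in fld relative to control cells, against 5.03% and 0.223% of all features, and 13 had an unadjusted p under 0.05, against 18.6% of all features. The median difference was 0.66, against 0.06 over all features, and 39 of 40 genes had a difference above 0, against 60.5% of all features. Arrays did not overlap for 4 of the 40 genes (Oasl2, Eif2ak2, Cxcl9 and Ifi44), against 15.3% of all features. The gene that rose was Cxcl9 (1.76, SE 0.42, adjusted p = 0.025, limma), with the untreated levels given above, and it had passed the filter on dim probes only through the fld untreated group. With only the 39 genes well above background on all 16 arrays, 0 rose, where 475 of 14964 features were called in either direction. The Cxcl9 call was lost without control untreated replicate 2 or 4 and without fld untreated replicate 1, 2 or 4. Without control untreated replicate 1, the array on which all 37 ISGs were highest in its group, 6 genes rose (Cxcl9, Bst2, Cxcl11, Ifi205, Ifitm3 and Oas1g). In that setting 987 of 17470 features were called in either direction. The count was 2 without control LPS replicate 1 or 3 or fld LPS replicate 1, 2 or 4, which enter only through the shared estimate of spread. Features called in these settings numbered 805 to 1652. Without both arrays labelled fld replicate 4, 3 genes rose (Cxcl9, Ifnar2 and Oas1g), where 1129 of 17470 features were called in either direction.

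**Figure D5:**
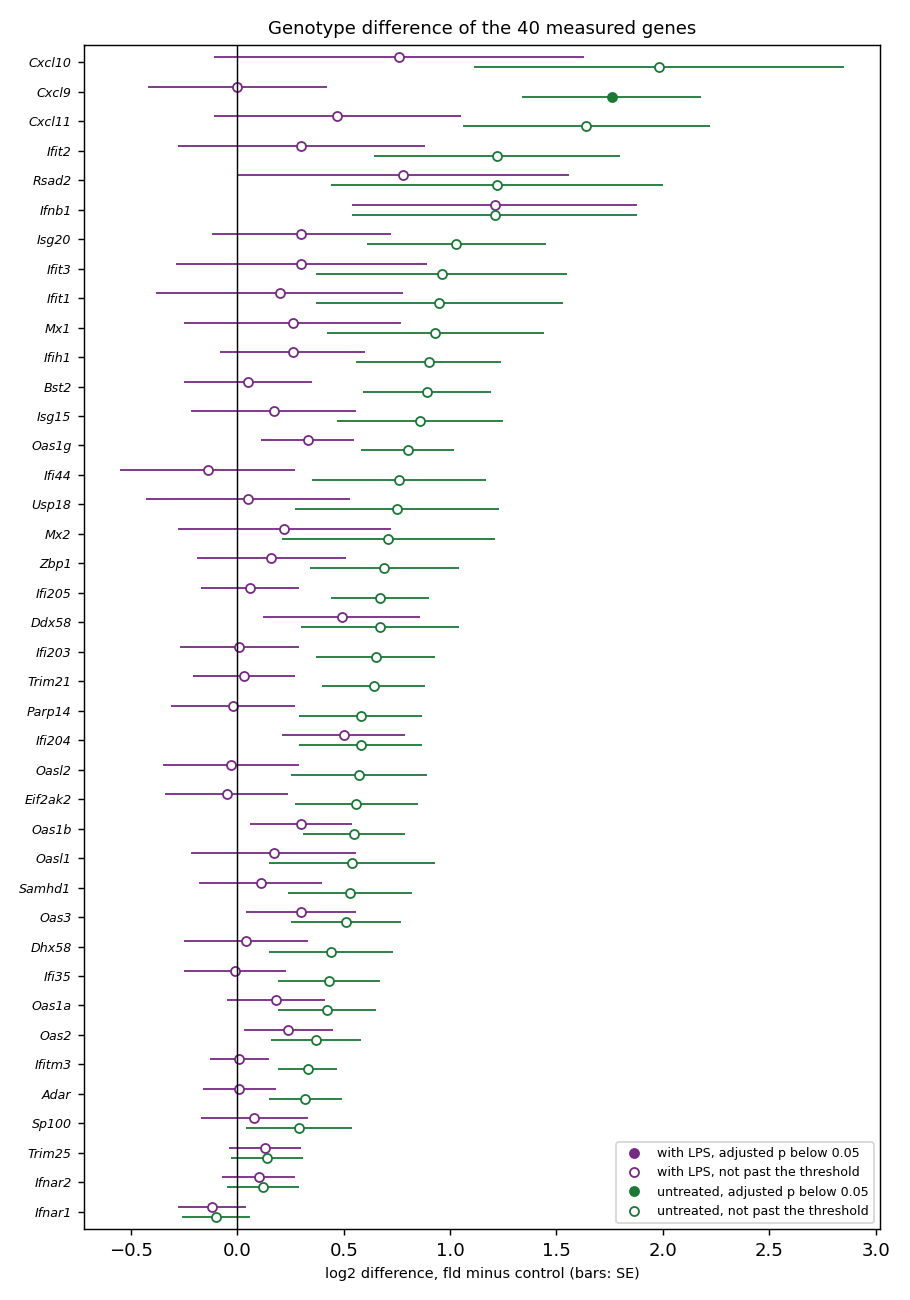
Log2 difference between genotypes (fld minus control, bars give the SE) of each of the 40 measured genes with LPS (purple) and untreated (green), sorted by the untreated difference. Most untreated points lie between 0 and 1.5 and only Cxcl9 is filled (adjusted p below 0.05), while the points with LPS scatter closer to 0.

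The largest untreated differences besides Cxcl9 were those of Cxcl10 (1.98, SE 0.87, adjusted p = 0.23) and Cxcl11 (1.64, SE 0.58, adjusted p = 0.12), neither past the threshold (limma). Ifit2 differed by 1.22 (SE 0.58, adjusted p = 0.27) and Rsad2 by 1.22 (SE 0.78, adjusted p = 0.45), also short of it (limma). For Mx1 the untreated difference was 0.93 (SE 0.51, adjusted p = 0.35), and for Isg15 0.86 (SE 0.39, adjusted p = 0.25) (limma). Samhd1 differed by 0.53 (SE 0.29, adjusted p = 0.35) and Usp18 by 0.75 (SE 0.48, adjusted p = 0.45) (limma). Ifnb1 differed by 1.21 (SE 0.67, adjusted p = 0.36), with a 95% interval from -0.21 to 2.63 (limma). On all arrays the receptor genes differed little, Ifnar1 by -0.10 (SE 0.16, adjusted p = 0.81) and Ifnar2 by 0.12 (SE 0.17, adjusted p = 0.78) (limma), with intervals of -0.44 to 0.24 and -0.23 to 0.48. Without both arrays labelled fld replicate 4, Ifnar2 was higher in fld cells by 0.32 (limma adjusted p = 0.047), and Ifnar1 differed by 0.01 (limma adjusted p = 0.99).

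With LPS, 0 of the 40 genes passed between genotypes by limma, and 0 had an unadjusted p under 0.05. Of all features 16.2% were higher and 0.899% lower in fld cells, and arrays did not overlap for 0 of the 40 genes, against 19.9% of all features. The median difference of the 40 genes was 0.17, against 0.02 over all features. It was -0.10 without fld LPS replicate 2, 0.0 without fld LPS replicate 4, 0.43 without fld LPS replicate 1, 0.32 without fld LPS replicate 3, 0.26 without control LPS replicate 1 and 0.06 without control LPS replicate 3. Without the 3 arrays of lowest 75th percentile it was -0.47, and without both arrays labelled fld replicate 4 it was 0.0, so the direction rested on which fld LPS arrays were counted. With median scaling it was -0.23, under which the median of all features was -0.38. The largest difference was that of Ifnb1 (1.21, SE 0.67, adjusted p = 0.27, limma), followed by Rsad2 (0.78, SE 0.78, adjusted p = 0.60) and Cxcl10 (0.76, SE 0.87, adjusted p = 0.65). Ifi203 (0.01, SE 0.28, adjusted p = 0.98) and Ifitm3 (0.01, SE 0.14, adjusted p = 0.97) were among the genes nearest to 0 (limma).

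Most genes had a lower change with LPS in fld than in control cells, but the difference between the responses did not pass for any. By limma 0 of 17470 features passed (0% of features), 1650 had an unadjusted p under 0.05, and among the 40 genes only Cxcl9 did (-1.76, SE 0.59, adjusted p = 0.35), which had passed the filter only through the fld untreated group. With quantile normalization 13 features passed and with array weights 10, none of them among the 40 genes. The median of the difference in response over the 40 genes was -0.51, against 0.0 over all features. It was -0.24 without fld LPS replicate 1, -0.32 without fld LPS replicate 3, -0.81 without fld LPS replicate 2 and -0.68 without both arrays labelled fld replicate 4. Ifit2 gave -0.92 (SE 0.81, adjusted p = 0.77) and Cxcl10 -1.22 (SE 1.23, adjusted p = 0.81) (limma). A gene that passed in fld and not in control cells is therefore not shown to respond differently between them.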

How the data were processed

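The deposited scanner files give spot intensity for 1 single-colour Agilent array each, read with Agilent Feature Extraction 9.5.1.1 per the file headers, and the authors' processed intensity had already been background-subtracted. The deposited series table gives that intensity as a ratio to each array's median, as the values show. Control spots and outlier-flagged spots were left out, and the intensity was taken to log2 minus the 75th percentile of its array, which gives log2 values derived from the deposited intensity. Probes detected above background throughout any 1 of the 4 groups were kept (25535 of 41174), and the brightest probe stood for a gene. Gene names follow the RefSeq table of GRCm38.p6.

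A model of group means on the 16 arrays was fitted by limma 3.58.1 (R 4.3.3), with 5 comparisons, two-sided p-values and Benjamini-Hochberg adjustment over 17470 features, tested on simulated data. All members are named. Values on every array are given for up to 4 called members of each role group (smallest adjusted p first), and for Ifnb1, Ifnar1, Ifnar2, Ifit2, Cxcl10, Isg15, Rsad2 and Mx1. Of the 2 wider lists, up to 5 called genes are named per comparison. The members and lists were chosen with earlier results of these data known. Alternatives changed background, scaling, filter, probes, weights, replicate block and the arrays used. Replicate numbers are not said to pair samples, so no pairing was used in the main fit. Deviations of same-numbered LPS and untreated arrays correlated between -0.10 and 0.20 in fld and between 0.084 and 0.26 in control cells. A shared number was also a shared slide position, so these correlations cannot decide whether samples were paired.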

Additional observations from a re-analysis of the deposited data

Results flagged for a closer look

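With 40 genes and 4 groups, 160 sets of 4 arrays were checked for 1 array that stands apart from the other arrays of its group by Dixon's criterion. This happened 4 times, and chance gives about 1 in 20, which is 8. Ifit3 at 5.96 and Ifi35 at 3.97 were far above the rest of their group on control untreated replicate 1, the array that was highest of its group for all 37 ISGs. Ifnar1 at 2.28 and Ifnar2 at 2.97 were far below the rest of theirs on fld untreated replicate 4, 1 of the 2 fld arrays whose Lpin1 signal went against the label. The ligand and receptor changes above rest on all arrays, and both receptor genes still rose with LPS in fld cells without both arrays labelled fld replicate 4.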

How the results depend on the processing

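Counts are genes among the 40 unless features are named, and the cause of each shift was not tested. For LPS in fld cells, the genes that fell numbered 14 to 24 when 1 array was left out at a time, 10 with normexp background, 30 with median scaling and with the series table, and 32 without the 3 dimmest arrays. Those that rose numbered 2 throughout the single omissions, 1 with median scaling, with the series table and with only the 8 arrays compared, and 0 with either normexp setting. Over single omissions the median ran from -1.07 to -0.56, and it was -1.44 without the dimmest arrays. For LPS in control cells, 6 to 9 fell and 2 to 4 rose when 1 array was left out, 13 fell with only 8 arrays and 12 without the dimmest, 1 rose with median scaling, the series table or the reset normexp setting and 0 with normexp, and the median ran from -0.47 to -0.08 over single omissions and was -0.72 with normexp. Without LPS, fld against control gave 0 to 6 higher genes when 1 array was left out, 7 with array weights, 2 with the mean of probes, 3 with 8 arrays, 3 without both arrays labelled fld replicate 4, 6 without the dimmest, and 0 with normexp, its reset setting, quantile normalization or a filter on all 16 arrays. The median ran from 0.53 to 0.90 over single omissions and was 0.48 with median scaling and the series table. With LPS the fld against control median ran from -0.10 to 0.43 over single omissions and was -0.11 with array weights, -0.23 with median scaling and the series table and -0.47 without the dimmest arrays, with 1 lower gene under median scaling and the series table. The median genotype difference in response ran from -0.81 to -0.24 over single omissions and was -0.88 with array weights and -1.13 without the dimmest arrays. For LPS in fld cells, features called numbered 5393 to 7352 over single omissions, 6722 with median scaling and 4847 without the dimmest arrays. In control cells they numbered 4226 to 5962, 4109 and 5093 in the same settings. Features called with normexp were 1392 (LPS in fld), 1130 (LPS in control), 0 (fld against control, untreated) and 0 (with LPS). Untreated, they were 38 with the reset setting, 534 with quantile normalization, 475 with the strict filter, 1704 with 8 arrays, 2305 with weights, 1572 without the dimmest arrays and 351 to 1652 over single omissions. With LPS they were 8642 with median scaling, 8637 with the series table and 1545 without the dimmest. The genotype difference in response had 7, 7, 13 and 10 features with median scaling, the series table, quantile normalization and array weights, and 0 to 1 over single omissions. With the replicate number as a block, 19 genes fell and 2 rose in fld cells, 6 fell and 2 rose in control cells, and 1 feature was called for the genotype difference in response. Median scaling moved the median of all features to -0.18 for LPS in fld cells, -0.12 (untreated) and -0.38 (with LPS) between genotypes, and turned Adar to -0.39 between genotypes with LPS, as did the series table (-0.39). Normexp turned Cxcl9 to 0.45 in fld cells and Ifnar2 to -0.14 in fld and -0.20 in control cells. A few extreme local backgrounds on control LPS replicates 2 and 4 and fld LPS replicate 1 (10, 7 and 4 spots) entered that setting and were replaced in the reset one.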
